A study of Rattus norvegicus with 4 samples.

Results

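Fc gamma receptors and the ITAM signalling chain behind them were examined as a set of 9 genes, out of 16581 rat genes that a probe of the arrays could be tied to. The genes are Fcgr1a, Fcgr2b, Fcgr3a, Fcer1g, Tyrobp, Syk, Lyn, Plcg2 and Ptpn6. A gene was taken when a RefSeq accession printed for a non-control probe belongs to its symbol in the rat RefSeq table. All 9 had at least 1 such probe and all 9 were well above background on all 4 arrays, where 38.7% of the 16581 genes were. The 9 were chosen with earlier results of these data known, so this contrast is a description only.

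The RNA came from NR8383 cells, a rat macrophage line started by lung lavage of a normal animal, which had gone through 20 passages. All cells received NiZnFe2O4 for 4 h at a dose of 9.25 µg/mL; the formula names nickel, zinc, iron and oxygen. There are 4 biological replicates with 1 one-colour Agilent array each, and all come from this 1 line. The study's design pairs exposure with an unexposed control, and no control array was analysed here. The values therefore show how strongly each gene was detected after exposure and how closely 4 replicates repeated it, and hold nothing on what the exposure changed.

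Fc gamma receptors bind the constant part of IgG antibodies on a coated particle or microbe. Activating receptors signal through the tyrosine-based motif called ITAM, which is phosphorylated by Src family kinases and then holds the kinase Syk, whose targets drive calcium release, actin movement and engulfment. The inhibitory receptor carries a related motif, ITIM, which recruits phosphatases. In macrophages the same adaptors also serve receptors for lipids, sugars and damaged cells.

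Between 21812 and 24981 of the 58717 rat transcript spots per array were well above background, and none was flagged as saturated. Levels are given as the log2 of the processed signal minus the 75th percentile, on the same array, of the probes well above background on all 4 arrays. A level of 0 is therefore the brightness of that percentile, and a step of 1 is a doubling. Levels of different genes come from different probe sequences and are not ranked against each other. Of 11 measured macrophage markers all were well above background on all 4 arrays, where 38.7% of all genes were. Among them were Cd68, Csf1r, Itgam and Spi1, the gene of the myeloid transcription factor PU.1. Some were dim, as Csf1r stood at -3.50 ± 0.30 and Cd14 at -4.36 ± 0.45 (SD, n = 4 each). Mpeg1 had 3 probes, of which the weakest passed on no array. All 8 mast cell and basophil markers passed on no array. Of 44 measured markers of NK, B, T, mast, neutrophil and epithelial cells, 6 passed on all 4 arrays, 5 on 1 to 3 arrays and 33 on none. The 6 were Camp, Cd28, Foxj1, Lck, Nkg7 and Pax5. The T cell marker Cd28 stood at -1.22 ± 0.20 (SD, n = 4) by the brighter of its 2 probes, while the weaker passed on no array.

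The ligand-binding receptors come first in the chain. Fcgr1a encodes the high-affinity IgG receptor, also called CD64. Its processed signal was 2385, 1636, 987 and 1323 intensity units on replicates 1 to 4. After scaling these became levels of 1.45, 1.24, 0.90 and 1.21, a mean of 1.20 ± 0.23 (SD, n = 4). Replicate 3 was the lowest and replicate 1 the highest, a range of 1.46-fold. Without replicate 3 the SD was 0.133, and without replicate 4 it was 0.28. Here and below, the replicate named first as left out was picked for lying at an end of the range, which tends to lower the SD.

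Fcgr2b encodes the inhibitory receptor of the family. Its levels were 0.80, 0.68, 0.47 and 0.60 on replicates 1 to 4, a mean of 0.64 ± 0.14 (SD, n = 4), from signals between 732 and 1525 intensity units. Fcgr1a and Fcgr2b shared the order of the arrays at both ends, with replicate 1 highest and replicate 3 lowest. The log2 difference between them within an array had an SD of 0.09 (n = 4), against 0.23 for Fcgr1a and 0.14 for Fcgr2b taken alone. This SD of a difference does not depend on how the arrays are scaled to each other by a constant.

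Fcgr3a encodes the activating receptor that RefSeq lists with the older names CD16-2 and Fcgr4. It stood at 1.57, 1.44, 1.54 and 1.31 on replicates 1 to 4, a mean of 1.47 ± 0.12 (SD, n = 4). Replicate 4 was the lowest. The SD was 0.065 without replicate 4 and 0.144 without replicate 2. In the RefSeq table of assembly GRCr8, Fcgr2b and Fcgr3a are direct neighbours, with 0 genes listed between them. Fcgr2a lies on the same chromosome, with 7 listed genes between it and Fcgr3a, and carries Fcgr3 and Fcgr3a among its older names, so that older annotations can mean another gene by Fcgr3a. Fcgr2a, which is not among the 9, was also well above background on all 4 arrays, at 3.60, 3.62, 3.46 and 3.70, a mean of 3.59 ± 0.10 (SD, n = 4). Whether the probes of these related genes also bind each other's transcripts was not tested, so levels in this family are uncertain in that respect.

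**Figure D1:**
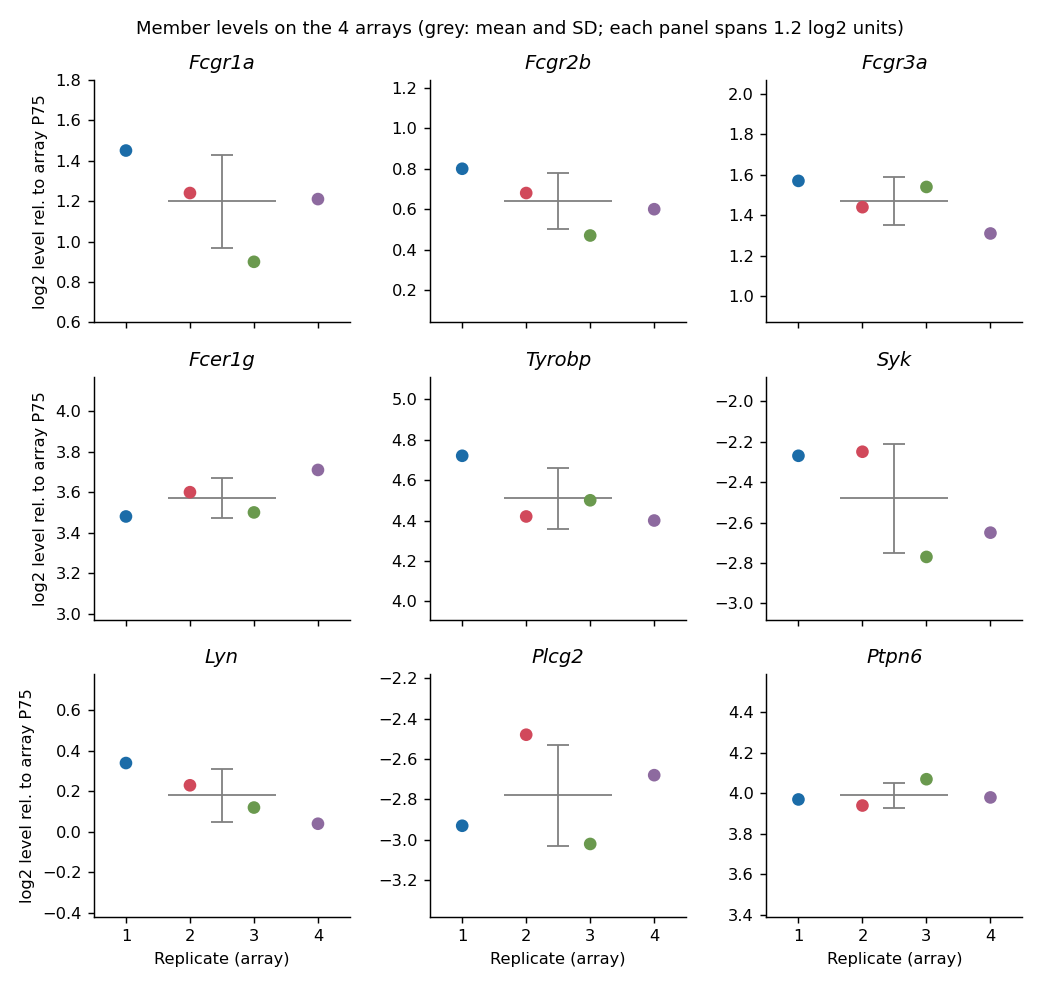
Level of each gene on each array, as log2 processed signal minus the array's 75th percentile over detected probes (vertical axis) against replicate (horizontal axis). Points are arrays, the grey bar and whiskers are the mean and SD of the 4, and each panel covers the same log2 span around its own mean. Fcgr1a, Syk and Plcg2 spread widest (SD 0.23, 0.27 and 0.25), and Ptpn6 least (SD 0.06).

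The adaptor genes Fcer1g and Tyrobp carried strong signals. Fcer1g encodes the common gamma chain, the ITAM subunit shared by the activating Fc gamma receptors. Its signals were 9754, 8408, 5998 and 7484 intensity units on replicates 1 to 4, between 204 and 320 times the local background in raw medians. After scaling the levels were 3.48, 3.60, 3.50 and 3.71, a mean of 3.57 ± 0.10 (SD, n = 4). Replicate 4 was the highest. The SD was 0.069 without replicate 4 and 0.123 without replicate 2.

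Tyrobp encodes DAP12, the ITAM adaptor of TREM receptors and other myeloid receptors. Its signals were 23124, 14830, 11975 and 12075 intensity units, and its levels 4.72, 4.42, 4.50 and 4.40 on replicates 1 to 4, a mean of 4.51 ± 0.15 (SD, n = 4). Replicate 1 was the highest. With this scaling its 9 retained spots lay between 4.67 and 4.79, above every retained spot of the other arrays, which reached 4.58. This gap depends on how the arrays are scaled to each other, and spots of 1 array are not replicates. With scaling by the percentile over all probes the SD over arrays was 0.122. The spot left out for its outlier flag on replicate 1 lay within the range of the other arrays. Without replicate 1 the SD over arrays was 0.055, and without replicate 3 it was 0.185. The adaptors did not deviate together. The difference Fcer1g minus Tyrobp lay 0.31 below its mean on replicate 1 and 0.25 above it on replicate 4.

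The kinases follow. Lyn, a Src family kinase that phosphorylates both ITAM and ITIM, had signals of 1108, 812, 577 and 591 intensity units on replicates 1 to 4. Its levels were 0.34, 0.23, 0.12 and 0.04, a mean of 0.18 ± 0.13 (SD, n = 4). Its SD was 0.067 when the arrays were scaled by the percentile over all probes instead.

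Syk, the kinase that docks on phosphorylated ITAMs, was measured by 2 probes that disagreed. The first gave 182, 146, 77.6 and 91.2 intensity units on replicates 1 to 4 and was well above background on each array, though only 3.47 to 7.30 times its local background in raw medians. Its levels were -2.27, -2.25, -2.77 and -2.65, a mean of -2.48 ± 0.27 (SD, n = 4). Replicates 1 and 2 lay above replicates 3 and 4. The second probe, which the files assign to the same transcript, gave 10.8, 5.29, 3.65 and 7.06 intensity units and was well above background on no array. The Syk call therefore rests on the first probe, and 8 of the 9 genes passed when every probe of a gene had to pass, where 33.2% of all genes did. Averaging both probes would set Syk at -4.60. Which part of the transcript each probe covers was not examined.

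Plcg2 encodes the phospholipase that Syk signalling uses to release calcium. It was similarly close to background, at 115, 124, 65.5 and 89.6 intensity units on replicates 1 to 4 and between 4.14 and 6.37 times its local background in raw medians. Its levels were -2.93, -2.48, -3.02 and -2.68, a mean of -2.78 ± 0.25 (SD, n = 4). Replicates 2 and 4 were above its mean and replicates 1 and 3 below, so Syk and Plcg2 did not share an order of arrays. With normexp background correction the means were -1.98 for Syk and -2.09 for Plcg2. That setting works on median signals and adds an offset of 50 to each value, which is not small beside the signals of these genes.

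Ptpn6 encodes SHP-1, a phosphatase that binds ITIMs and dampens ITAM signalling. It was the steadiest of the 9, with signals of 13731, 10615, 8883 and 9059 intensity units and levels of 3.97, 3.94, 4.07 and 3.98 on replicates 1 to 4, a mean of 3.99 ± 0.06 (SD, n = 4). Without replicate 3 the SD was 0.018, and without replicate 1 it was 0.066. It was 0.109 with scaling by the percentile over all probes, and Fcgr2b, Fcgr3a and Lyn then had the lower values of 0.099, 0.094 and 0.067.

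**Figure D2:**
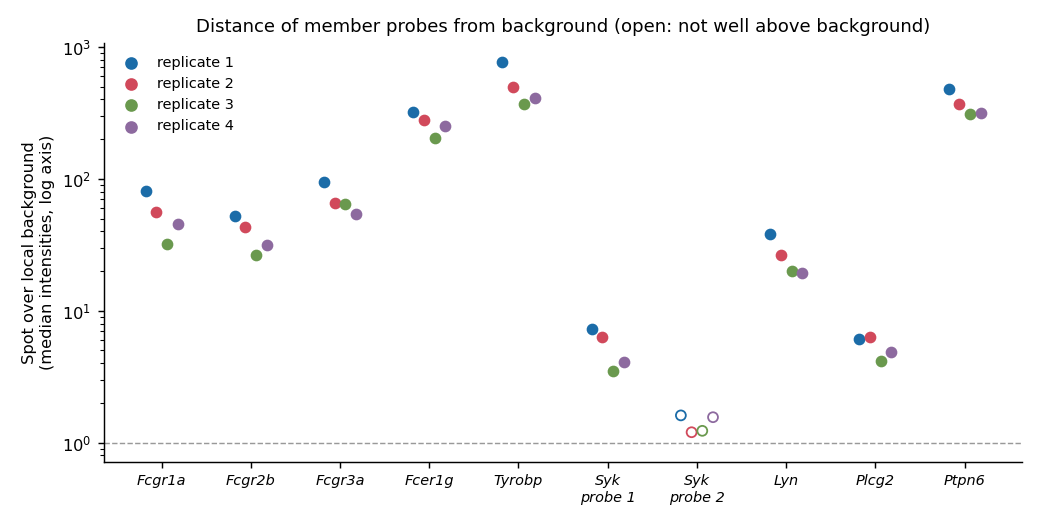
Raw median intensity of the spot divided by that of its local background, on a log axis, for each probe of the 9 genes and each array (colours). Filled points were well above background and open points were not; the dashed line marks a ratio of 1. The 4 open points of the second Syk probe lie between 1.20 and 1.61, and the first Syk probe and Plcg2 lie between 3.47 and 7.30.

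Repeated spots give the technical error within an array. Fcgr2b, Tyrobp and Ptpn6 were printed in 10 spots per array and Fcer1g in 2, while the other 5 genes rest on a single spot per probe. The SD between spots of an array, pooled over arrays, was 0.114 for Fcgr2b, 0.070 for Tyrobp, 0.084 for Ptpn6 and 0.096 for Fcer1g. These are errors of single spots, and a mean over several spots has a smaller one, so they are not set against the SD between array means. The Ptpn6 spots of all 4 arrays overlapped.

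Of 148 spot readings of the 9 genes, leaving out the second Syk probe, 4 carried an outlier flag and were not used. One was an Fcgr2b spot on replicate 2 with 313 intensity units, where the 9 retained Fcgr2b spots of that array lay between 968 and 1181. Around that spot 62 detected single-spot probes within 10 rows and columns had a median deviation of -0.81 log2 units from the median of the 4 arrays. Around all other readings of the 9 genes the same median lay between -0.12 and 0.22. The 0.22 belonged to the same spot position on replicate 1, whose reading was also flagged. On replicates 3 and 4 the median there was 0.15 and -0.11, and the readings were kept. The replicate 4 reading, with 647 intensity units, was the lowest Fcgr2b spot of its array. Fcgr2b had its widest within-array SD on that array, at 0.167, which enters the pooled 0.114. With flagged spots kept, the mean level of Fcgr2b was 0.60 in place of 0.64.

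**Figure D3:**
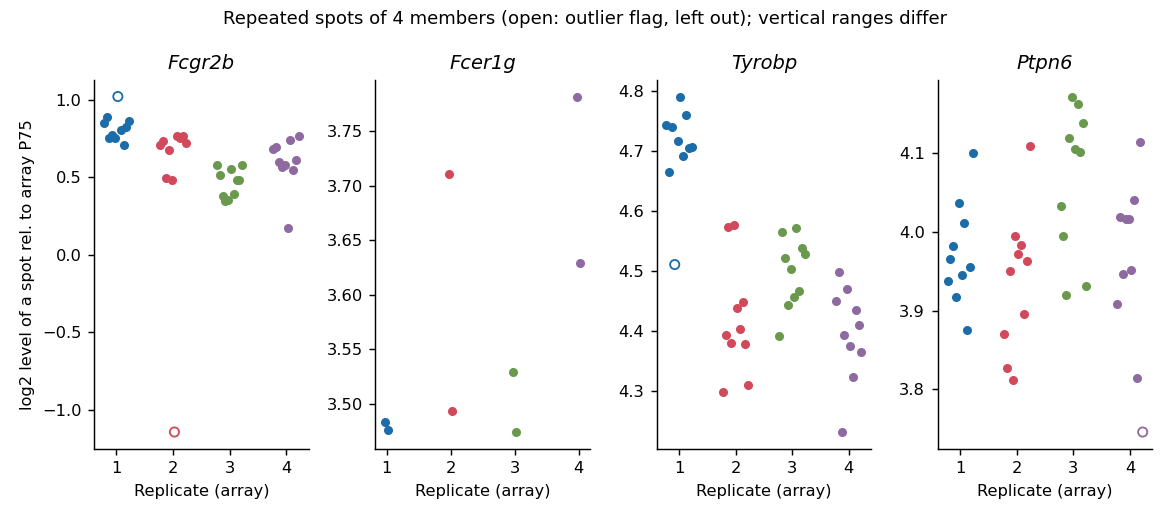
Level of every spot (vertical axis, log2 relative to the array's 75th percentile over detected probes, with a range of its own per panel) of the 4 genes printed more than once, by replicate (horizontal axis). Open circles carry the outlier flag and were left out. The retained Tyrobp spots of replicate 1 (4.67 to 4.79) lie above those of the other arrays, and the open Fcgr2b circle on replicate 2 lies below all other Fcgr2b spots.

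The spread of the 9 genes was set beside that of all 6418 genes well above background on all 4 arrays. The median SD was 0.14 log2 units for the 9 and 0.22 for the 6418, whose 10th and 90th percentiles were 0.10 and 0.42. Of the 9, 6 had an SD below the median of all genes. Genes printed in repeated spots had SDs between 0.06 and 0.15 and those in a single spot between 0.12 and 0.27. Averaging over spots lowers the first group's error, and its part in the difference from all genes was not tested. The 9 and the 6418 genes were also not matched for level. Syk and Plcg2, both close to background at mean levels of -2.48 and -2.78, had the widest SDs with this scaling (0.27 and 0.25). Fcgr1a followed with 0.23, at a mean level of 1.20. With normexp correction Fcgr1a had the widest SD of the 9, at 0.259, with Plcg2 at 0.176 and Syk at 0.143. The part of level in the difference from all genes was not tested. With scaling by the percentile over all probes the median SD was 0.122 for the 9 and 0.226 for all genes. With normexp correction the gap was smaller, at 0.143 for the 9 and 0.175 for all genes. Without any scaling the order turned: the median SD was 0.444 for the 9 and 0.385 for all genes.

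**Figure D4:**
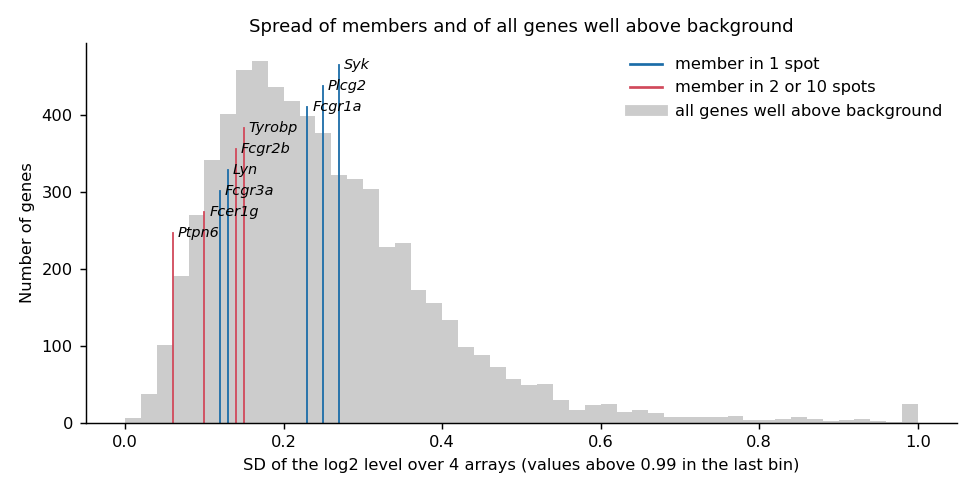
Histogram of the SD of the log2 level over 4 arrays for the 6418 genes well above background (grey; horizontal axis in log2 units, vertical axis the number of genes), with the 9 genes as lines, blue for a single spot and red for repeated spots. Line height only separates the names. Ptpn6 lies at 0.06 and Syk at 0.27, where the median of all genes is 0.22.

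Before scaling, 8 of the 9 genes had their highest signal on replicate 1, Plcg2 being the exception, and the highest over the lowest array was between 1.55-fold and 2.42-fold. After scaling this ratio was between 1.09-fold and 1.46-fold. On replicates 1 to 4, the number of the 9 above their own mean was 6, 6, 2 and 3. Of all detected genes, 50.8%, 60.1%, 46.4% and 47.7% lay above theirs. Among the 36 pairs of genes, the SD of the within-array log2 difference was between 0.09, as for Fcgr1a and Fcgr2b or Tyrobp and Lyn, and 0.36 for Tyrobp and Plcg2. These SDs describe 4 arrays of 1 condition, and no correlation between genes was computed from them.

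The wider pathway was read from 5 lists of 108 genes in all, of which 92 had a probe tied to their symbol. Of these, 52 (56.5%) passed on all 4 arrays, where 38.7% of all genes did. Another 7 passed on 1 to 3 arrays, and 33 failed throughout. Genes of such lists include many known from leukocytes, and nothing particular to the pathway follows from this share. The lists, too, were chosen with earlier results of these data known.

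Of 10 other Fc receptor genes measured, 4 passed on all 4 arrays, a share of 40.0% that is near the 38.7% of all genes. They included Fcgrt, the neonatal Fc receptor that salvages IgG, at -0.73 ± 0.17 (SD, n = 4). Fcer1a and Ms4a2, the ligand-binding and beta chains of the IgE receptor, which shares Fcer1g as a subunit, passed on no array. The low-affinity IgE receptor gene Fcer2 and the IgM receptor gene Fcmr passed on none either.

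The list of receptors and adaptors around Tyrobp, Fcer1g or a like adaptor held 16 measured genes. Of these, 9 (56.2%) passed on all 4 arrays, where 38.7% of all genes did. Some genes on it are adaptors themselves or do not pair with such an adaptor, so this is no count of paired receptors. Trem2, a lipid-sensing receptor that signals through Tyrobp, stood at 5.20, 5.00, 5.06 and 5.45 on replicates 1 to 4, a mean of 5.18 ± 0.20 (SD, n = 4). Trem1 and Trem3 passed as well. Clec7a, the beta-glucan receptor Dectin-1, which carries an ITAM-like motif of its own, stood at 0.93 ± 0.22 (SD, n = 4). Hcst, the adaptor DAP10, stood at 0.47 ± 0.09 (SD, n = 4). Clec4e and Clec4d, C-type lectins that signal through Fcer1g, passed on no array, nor did Oscar. The lymphoid ITAM chains Cd247 and Cd79b passed on none.

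The kinase list held 12 measured genes besides Lyn and Syk, from the Src, Tec and Syk families and with Csk added. Of these, 7 (58.3%) passed on all 4 arrays, where 38.7% of all genes did, and 5 on none. Fgr, a myeloid Src family kinase, stood at -0.75 ± 0.31 (SD, n = 4), and Fyn and Lck passed too. Csk, which switches off Src family kinases, stood at 1.64 ± 0.15 and Btk, a Tec family kinase, at -3.38 ± 0.15 (SD, n = 4 each). Src, Yes1, Blk and the Syk relative Zap70 were among those that passed on no array.

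Of 28 measured effector genes after Syk, 15 (53.6%) passed on all 4 arrays, where 38.7% of all genes did. Another 6 passed on 2 or 3 arrays and 7 on none. The adaptor genes of this list were mixed: Grb2, Sh3bp2, Skap2, Pik3ap1 and Card9 passed on all 4 arrays, Lat2, Lcp2 and Gab2 on 2 of 4 each, and Lat and Blnk on none. Lat2 illustrates the limit, at 21.5, 11.2, 3.77 and 25.0 intensity units, with replicates 1 and 4 passing. The PI3-kinase subunit genes Pik3cd, Pik3cg and Pik3r1 and the second phospholipase gene, Plcg1, passed on none. The exchange factor gene Vav1 stood at -1.72 ± 0.11, the adaptor gene Sh3bp2 at 2.60 ± 0.12 and the GTPase gene Rac2 at 0.88 ± 0.04 (SD, n = 4 each). Prkcd, a kinase that phosphorylates the adaptor CARD9, stood at 0.95 ± 0.20 and Card9 itself at -0.14 ± 0.23 (SD, n = 4 each). With the looser flag for positive and significant spots, 22 of the 28 passed on all 4 arrays, where 50.9% of all genes did. When every probe of a gene had to pass, 14 of the 28 did, where 33.2% of all genes did.

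The list of inhibitory receptors, phosphatases and ubiquitin ligases held 26 measured genes. Of these, 17 (65.4%) passed on all 4 arrays, where 38.7% of all genes did, 1 on a single array and 8 on none. Not all of them are inhibitors of the pathway, among them Ptprc, Ptpn11 and the ligand gene Cd47. Inpp5d, the lipid phosphatase SHIP-1 that binds the ITIM of the inhibitory Fc receptor, stood at -1.31, -1.30, -1.27 and -1.22, a mean of -1.28 ± 0.04 (SD, n = 4), with the arrays close together. Ptpn11, the relative of Ptpn6 called SHP-2, stood at -2.13 ± 0.33 by the brighter of its 2 probes, while the weaker passed on 1 of 4 arrays. Sirpa, the ITIM receptor for CD47, stood at 1.68 ± 0.24 and its ligand gene Cd47 at 0.31 ± 0.08 (SD, n = 4 each). The adaptor genes Dok1 and Dok3 stood at 0.85 ± 0.10 and 2.11 ± 0.22, and Ptprc, the phosphatase CD45, at -0.74 ± 0.31 (SD, n = 4 each). The inhibitory receptor genes Lair1, Cd300a, Cd72 and Cd22 and the phosphatase gene Ptpn22 passed on no array. The genes Pirb, Cd33 and Cbl had no probe tied to their symbol.

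**Figure D5:**
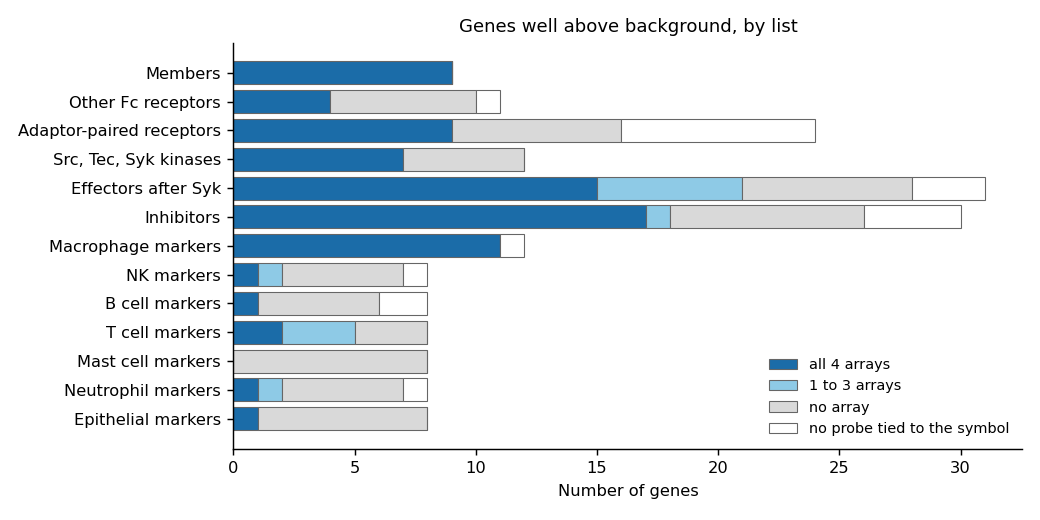
Number of genes (horizontal axis) in each list, split into those passing the background call on all 4 arrays, on 1 to 3 and on none, and those with no probe tied to their symbol. All 9 genes of the set and all 11 measured macrophage markers passed on all 4 arrays, and 0 of 8 mast cell markers did. Bar labels shorten the list names, and some lists also hold other genes, as the text states.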

How the data were processed

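Cy3-labelled cRNA of the exposed NR8383 cells was hybridised to 4 Agilent arrays, which lie on 1 slide per the file headers. The deposited intensities (a processed signal per spot, raw medians of spot and background) and 0 or 1 flags come from scans that the authors read out in Agilent Feature Extraction; the submitters' processing notes name version 11.0.1.1. They are not scaled between arrays. Control and outlier-flagged spots were dropped and the log2 values of a probe's spots averaged. To pass on an array, a probe needed a share of at least 0.5 of its spots well above background. Since 25.4% of 45598 probes passed on all 4 arrays, each array was scaled by its 75th percentile over those probes. RefSeq accessions without versions were matched to the GRCr8 table (21109 probes with 1 symbol, 24489 with none); the array design names build rn4, so no coordinates are given. A gene has the level of its brightest probe and passes if any probe does. The 9 genes and the lists were chosen with earlier results of these data known. Pathway genes are named by their state, with values for listed well-known ones that passed on all 4 arrays. Values of Hcst, Sh3bp2, Rac2, Cd47, Lat2, Grb2, Fcrla, Pax5, Pigr, Foxj1, Csf1r, Cd14 and Cd28 were added after they were seen. With 1 group no test between groups was made. The number of arrays limits precision. Python 3.11.15, numpy 2.4.6, pandas 2.3.3, limma 3.58.1 and R 4.3.3 were used, and the procedure was tested on simulated data. Single values of a few list genes are not reported here.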

Additional observations from a re-analysis of the deposited data

Results flagged for a closer look

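Of 61 genes of the set and its pathway lists that were well above background on all 4 arrays, 2 had 1 array apart from the other 3 by Dixon's ratio, at its 95% critical value. About 1 in 20 genes would pass it by chance. Csk, the kinase that switches off Src family kinases, had a ratio of 0.870, as replicate 3 stood at 1.86 and replicates 1, 2 and 4 between 1.54 and 1.58. Grb2, an adaptor that links tyrosine kinases to Ras, had a ratio of 0.857, as replicate 4 stood at 0.38 and replicates 1 to 3 between 0.79 and 0.86. None of the 9 genes exceeded it, and their largest ratio was 0.686, for Tyrobp. Over all 6418 detected genes 4.63% did.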

How the results depend on the processing

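The count of 9 genes above background is the highest possible, so looser rules could not raise it: with the looser flag 50.9% of all genes passed, and with 3 of 4 arrays 41.5%. It was 8 when every probe had to pass, where 33.2% of all genes did. Under that rule 3 of 10 other Fc receptors, 14 of 28 effectors and 14 of 26 genes of the inhibitory list passed. The 9 of 16 receptors and adaptors and the 7 of 12 kinases stayed the same. The median level of the 9 was 1.20. It was 5.65 with the percentile over all probes and 10.55 without scaling, which only move the zero point, and between 1.12 and 1.43 with 1 replicate left out, where the set of detected probes changes too. Their median SD of 0.141 was 0.444 without scaling, between 0.122 and 0.148 under the other alternatives on all 4 arrays, and between 0.107 and 0.169 with 1 replicate left out. Normexp correction with an offset of 50, run on median signals, moved 4 of 9 levels by more than their SD. Syk was then at -1.98 in place of -2.48 (SD 0.143 in place of 0.27), Plcg2 at -2.09 in place of -2.78, Fcer1g at 3.44 in place of 3.57 and Ptpn6 at 3.87 in place of 3.99 (SD 0.036); the cause was not tested. Removal of a local trend was chosen after seeing the data and moved no level or SD of the 9 beyond its limits. No paired analysis was possible because there is 1 group. A slide term could not be fitted with 1 slide. Closeness to background limits Syk and Plcg2.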

Other observations

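Some detected genes are better known from other cell types. Fcrla, an Fc receptor-like gene known from B cells, was well above background on all 4 arrays at 0.40, -0.03, 0.29 and 0.43, a mean of 0.27 ± 0.21 (SD, n = 4). Pax5, a B cell transcription factor gene, also passed on all 4, at -2.44 ± 0.29 (SD, n = 4), while the other 5 of 6 measured B cell markers passed on no array. Pigr, the epithelial carrier of polymeric antibodies, stood at 1.82, 1.14, 0.79 and 0.25 on replicates 1 to 4, a mean of 1.0 ± 0.66 (SD, n = 4), by the brighter of its 2 probes. The other Pigr probe passed on no array. Of 8 epithelial markers, 7 passed on none, and Foxj1 passed on all 4, at -3.86 ± 0.17 (SD, n = 4) by the brighter of its 2 probes, while the weaker passed on none. The Pigr SD exceeded that of 98.2% of detected genes. These genes were picked out after their values were seen.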
